A study of Mus musculus with 48 samples.

Results

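The genes described here are 35 nuclear genes that bring pyruvate into the mitochondrion and run the tricarboxylic acid (TCA) cycle. They were chosen by name and matched by symbol to the Ensembl identifiers of the count tables. All 35 were found among the 47643 genes counted, and all 35 passed the filter on low counts, which kept 14618 genes. The samples came from the dorsal hippocampus of 3 mice of the line Tg(Aldh1l1-eGFP/Rpl10a) JD130Htz, in which the astrocyte promoter Aldh1l1 drives ribosomal protein L10a tagged with eGFP. An antibody to GFP pulled down tagged ribosomes with their RNA (translating ribosome affinity purification) from whole astrocytes, called Astro, and from perisynaptic astrocytic processes, called PAP, the thin branches that contact synapses. Each animal gave both compartments and carried the same transgene. Age, sex, treatment and the way the processes were separated are not given in the sources used here. Counts were summed over the 8 technical replicates to 1 library per animal and compartment, so each compartment had n = 3 animals.

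Pyruvate made in the cytosol crosses the inner mitochondrial membrane through the carrier MPC and is turned into acetyl-CoA by pyruvate dehydrogenase, an enzyme that kinases switch off and phosphatases switch on. The cycle then oxidises acetyl-CoA through citrate, isocitrate, 2-oxoglutarate, succinate, fumarate, malate and oxaloacetate. In astrocytes the cycle also receives carbon from glutamate taken up at synapses, through glutamate dehydrogenase and the aminotransferases, and pyruvate carboxylase, in the brain an enzyme mainly of astrocytes, adds new oxaloacetate.

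The Astro libraries held 18707844 to 20293538 counts and the PAP libraries 1829962 to 2980984, so that 3 counts stood for 0.152 to 0.176 CPM (a count divided by its library total, on the usual scale and adjusted by edgeR's TMM factors) in Astro and for 0.991 to 1.55 CPM in PAP. Depth and compartment cannot be told apart at full depth. The 10 astrocyte markers summed to 31700, 26213 and 23399 CPM in Astro of animals 1 to 3 and to 3568, 8284 and 14246 CPM in PAP, with none at 0. Of the 10, 4 (Aldh1l1, Slc1a3, Gjb6 and Aldoc) passed the test as lower in PAP. In the same test 15.4% of all tested genes were lower and 5.92% higher. B lineage markers summed to 36.1 to 55.9 CPM in Astro and 2385 to 5240 CPM in PAP, where Igkc, Jchain and Ms4a1 passed as higher and Ighm, at 0 in the 3 PAP libraries, as lower. Ighm passed the filter on low counts through Astro alone. At its Astro mean, PAP of animal 1 would have held 9.03 counts of it. The 10 neuronal markers summed to 689 to 1289 CPM in Astro and 464 to 1360 CPM in PAP, with Snap25 passing as lower and Syt1 as higher. The 8 oligodendrocyte markers summed to 797 to 858 CPM and 498 to 1015 CPM, and none of them passed. Microglial markers summed to at most 51.9 CPM and endothelial markers to at most 12.4 CPM in any library, and the microglial Cx3cr1, P2ry12 and Tmem119, at 0 in the 3 PAP libraries, passed as lower. These 3 genes passed the filter on low counts through Astro alone, so their calls are given as values only. At their Astro means, PAP of animal 1 would have held 4.42, 24.0 and 4.56 counts of them. In the fit blocked on the animal, Igkc and Jchain were the only markers that passed, and the adjusted p was 0.176 to 0.206 for the 4 astrocyte markers, 0.127 for Snap25, 0.206 for Syt1, Ms4a1 and Ighm, and 0.206 to 0.207 for the 3 microglial markers. The part of these markers in the results below was not tested. In pulldowns from tissue, fewer cells of a type and less RNA per cell cannot be told apart.

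Together the 35 genes took 0.929%, 0.823% and 1.05% of all counts in Astro of animals 1 to 3, and 0.487%, 0.503% and 0.566% in PAP. Every PAP library lay below every Astro library. The sum of their CPM was 2.23, 1.90 and 1.86 times higher in Astro than in PAP within animals 1, 2 and 3. In the edgeR quasi-likelihood test of PAP against Astro, with Benjamini-Hochberg adjustment over all 14618 genes and a threshold of 0.05, 11 of the 35 genes were lower in PAP (31.4%), where 15.4% of all tested genes were. None of the 35 was higher in edgeR, where 5.92% of all tested genes were, and at an unadjusted p under 0.05 there was 1 higher and 13 lower (2.86% and 37.1%, against 9.39% and 21.5% of all tested genes). The DESeq2 Wald test called 14 lower and 1, Pdk1, higher, where 23.6% and 11.5% of all tested genes were. With limma voom and a variance per group the order turned round: 1 of the 35 (Suclg2, 2.86%) was lower and 0 were higher, where 19.9% and 4.13% of all tested genes were.

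The 11 genes that fell were Pdk2, Mpc2, Idh2, Idh3b, Suclg1, Mdh1, Glud1 and the succinate dehydrogenase genes Sdha, Sdhb, Sdhc and Sdhd. The median log2 fold change of the 35 genes was -1.12, against -0.53 over all tested genes, and 28 of the 35 values were negative (80.0%, against 60.9% of all tested genes). The groups did not overlap in 21 genes, all lower in PAP (60.0%, against 35.1% of all tested genes), and in 0 genes with PAP higher (10.9% of all tested genes). Within animals, 23 genes were lower in PAP in all 3 (65.7%, against 40.0% of all tested genes), and 2, Pdk1 and Got2, were higher in all 3 (5.71%, against 12.6%). Scaling by library size alone moved the median of all tested genes by 0.15, and relative to that median the 11 genes lay at -1.95 (Pdk2) to -0.30 (Mdh1) under TMM scaling.

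These calls depended on how the spread between animals and the depth were treated. With the animal as a replicate block, 0 of the 35 genes passed in edgeR (0.91% of all tested genes did, in either direction), with adjusted p from 0.175 upwards, and at an unadjusted p under 0.05 there were 16 lower and 0 higher (45.7% and 0%, against 17.9% and 5.42% of all tested genes). In that paired fit the median of the 35 genes was -1.27 against -1.63 over all tested genes, above rather than below the rest. Without Astro of animal 1, 2 or 3, 0 of the 35 genes passed in edgeR, and of all genes tested 0.00773%, 0.0388% and 0.0389% were called lower. At an unadjusted p under 0.05, 12 of the 35 were lower in each of these fits (34.3%), against 14.1%, 13.9% and 14.6% of all genes tested. Without PAP of animal 1, 2 or 3 the test called 12, 12 and 15 of the 35 lower, where 19.6%, 17.8% and 20.2% of all genes tested were. With all libraries thinned to 1829962 counts, 4 genes (Pdk2, Sdha, Sdhb and Sdhd) were called lower (11.4%, against 9.16% of the genes tested there). When only genes averaging 100 counts or more were tested, which included all 35, 3 (Idh3b, Sdhb and Sdhd) were called lower (8.57%, against 8.19%). In these last fits the share of the 35 genes called was near that of all genes.

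**Figure D1:**
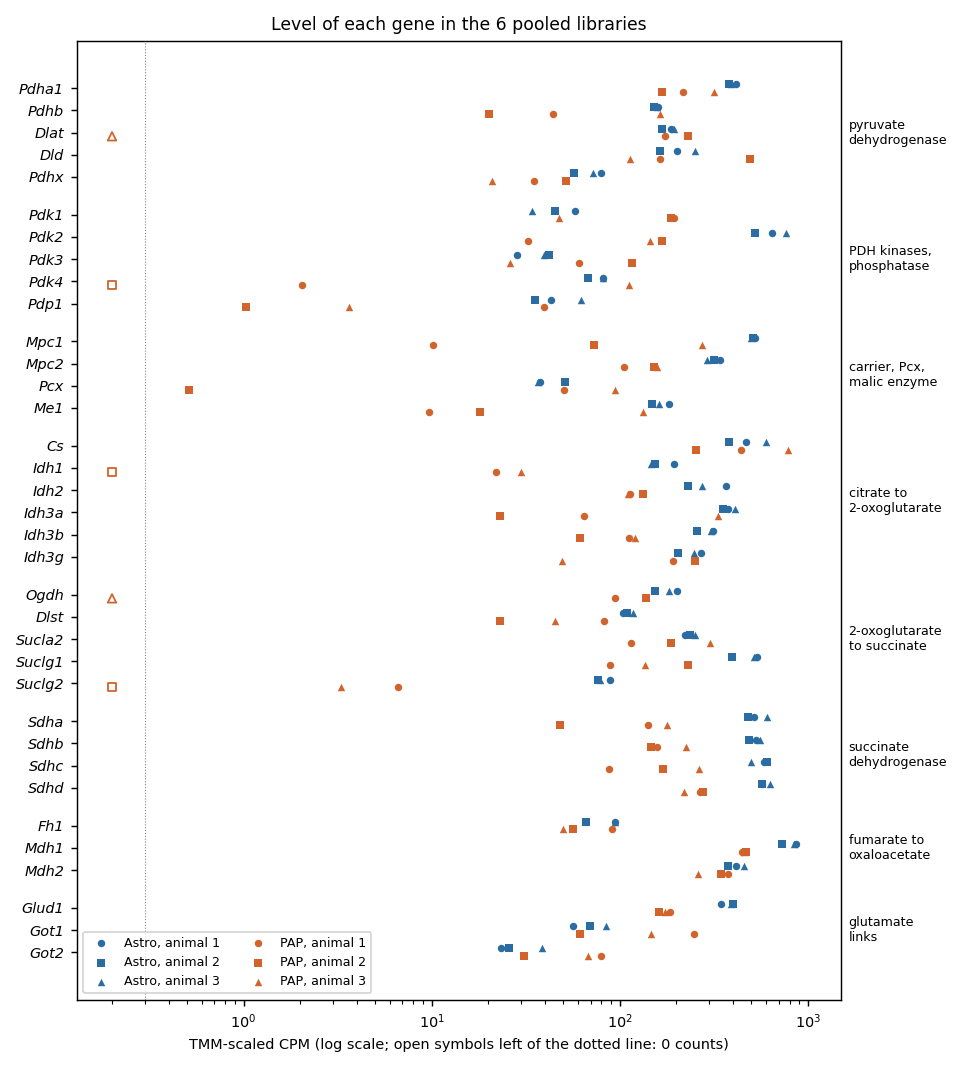
TMM-scaled CPM (log scale) of each of the 35 genes in the 6 libraries, Astro in blue and PAP in orange, with 1 symbol shape per animal and open symbols for a library with 0 counts. The 3 Astro libraries of each gene lie within 2-fold of each other, while PAP libraries of 13 genes spread over more than 5-fold or include a 0.

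The Astro libraries lay close together and the PAP libraries did not. The highest Astro library exceeded the lowest by 1.05 to 1.77 times, with a median of 1.23, and all 35 genes were within 2-fold, as were 73.1% of all tested genes. In PAP 10 genes were within 2-fold (28.6%, against 10.5% of all tested genes), and 13 spread more than 5-fold or had a library at 0 (37.1%, against 72.2%). All 35 genes had more than 3 counts in every Astro library, also after thinning to 1829962 counts, where the lowest had 43 to 49. In PAP 35, 30 and 33 genes of animals 1 to 3 had more than 3 counts. PAP of animal 2 had 0 counts of Pdk4, Idh1 and Suclg2, 1 of Pcx and 2 of Pdp1, and PAP of animal 3 had 0 of Dlat and Ogdh in all 8 technical replicates. At their mean Astro level, that library would have held 556 counts of Dlat and 544 of Ogdh, and PAP of animal 2 would have held 320 of Idh1 and 149 of Pdk4. For Dlat, Ogdh, Pdk4 and Pcx a PAP library at or under 3 counts stood beside another with 100 or more (11.4%, against 16.4% of all tested genes). Of all tested genes, 60.4% had 3 counts or fewer in at least 1 PAP library, against 7 of the 35 genes here (20.0%).

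Pyruvate dehydrogenase is built from an E1 decarboxylase (Pdha1 and Pdhb), the E2 acetyltransferase (Dlat), the E3 dehydrogenase shared with the 2-oxoglutarate enzyme (Dld) and the E3-binding protein (Pdhx). None of the 5 subunit genes passed the edgeR test, with adjusted p from 0.160 to 0.897, where 15.4% of all tested genes were lower and 5.92% higher. Pdha1 stood at 415, 380 and 391 CPM in Astro of animals 1 to 3 and at 217, 168 and 315 CPM in PAP, a log2 fold change of -0.76 ± 0.31 (SE; edgeR adjusted p 0.160). All its PAP values lay below its Astro values, and so did those of Pdhx. Of the exonic bases of Pdha1, 16.1% also belong to Map3k15. Pdhb ranged from 20.1 to 165 CPM in PAP against 152 to 160 CPM in Astro, and Dld from 114 to 494 CPM against 164 to 251 CPM. Dlat stood at 175 and 230 CPM in PAP of animals 1 and 2, near its 168 to 195 CPM in Astro, and at 0 in animal 3. The subunits differed in which PAP library was lowest, that of animal 2 for Pdha1 and Pdhb and that of animal 3 for Dlat, Dld and Pdhx.

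The pyruvate dehydrogenase kinases Pdk1 to Pdk4 phosphorylate and inactivate the complex, and the phosphatase Pdp1 reverses this. Pdk2 fell, and of the called genes it had the log2 fold change farthest from 0. It stood at 645, 524 and 764 CPM in Astro of animals 1 to 3 and at 32.7, 169 and 145 CPM in PAP. Its groups were far apart, and PAP of animal 1 was lowest of all. The log2 fold change was -2.48 ± 0.62 (SE; edgeR adjusted p 0.0333), and -2.75 with an adjusted p of 0.199 with the animal block. Without PAP of animal 3 the call was lost too. The other kinases did not pass. Pdk1, the kinase known from hypoxia responses, stood at 57.5, 45.0 and 34.4 CPM in Astro and at 195, 187 and 47.6 CPM in PAP. It was higher in PAP in 3 of 3 animals, but PAP of animal 3 lay inside the Astro range (log2 fold change 1.65 ± 0.64, SE; adjusted p 0.136, and 0.300 with the block). Without PAP of animal 3, Pdk1 was called higher, as were 7.57% of all genes tested. Pdk3, another of the kinases, ranged from 28.4 to 42.3 CPM in Astro and from 26.1 to 116 CPM in PAP. Pdk4, the kinase induced by fasting, stood at 67.5 to 81.9 CPM in Astro and at 2.04, 0 and 112 CPM in PAP. Pdp1 stood at 35.3 to 62.6 CPM in Astro and at 39.8, 1.03 and 3.63 CPM in PAP.

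The makeup of the kinase transcripts differed between the compartments. This comparison was chosen after its values were seen and is given without a test. Per kilobase of exonic sequence, Pdk2 supplied 83.0%, 80.0% and 84.9% of the summed kinase counts in Astro of animals 1 to 3, and 17.3%, 43.4% and 48.9% in PAP. Pdk1 supplied 1.55% to 3.01% in Astro and 42.1%, 19.5% and 6.50% in PAP. Pdk3 supplied 4.51% to 7.97% in Astro and 39.7%, 37.1% and 10.8% in PAP. The shares of Pdk1 and Pdk3 were raised in PAP of every animal, and least so in animal 3. In that animal Pdk4 supplied 8.12% in Astro and 33.8% in PAP. In animals 1 and 2 its share was lower in PAP, at 0.973% and 0%, than in Astro, at 9.49% and 9.28%.

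**Figure D2:**
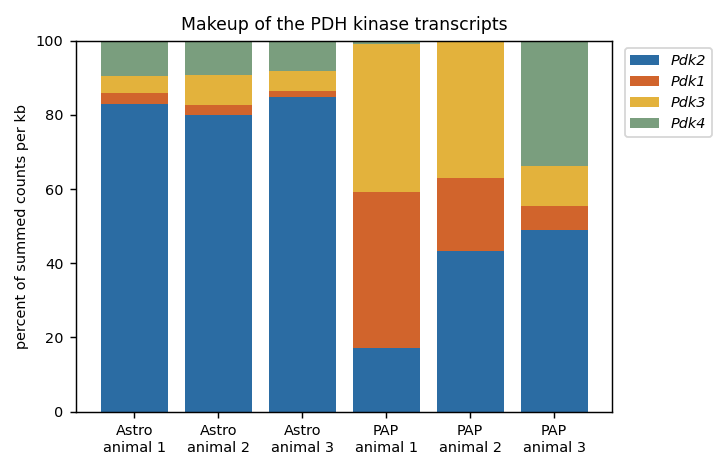
Share of each pyruvate dehydrogenase kinase in the summed kinase counts per kilobase (percent, stacked bars) in the 6 libraries. Pdk2 makes up 80.0% to 84.9% of each Astro bar and 17.3% to 48.9% of each PAP bar.

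Of the genes that deliver pyruvate or link it to malate, the carrier subunit Mpc2 fell. It stood at 340, 319 and 290 CPM in Astro and at 105, 153 and 157 CPM in PAP of animals 1 to 3, a log2 fold change of -1.19 ± 0.30 (SE; edgeR adjusted p 0.0345, and 0.206 with the block). Its partner Mpc1, which forms the carrier with it, had values of 523, 510 and 500 CPM in Astro and of 10.2, 72.7 and 274 CPM in PAP. All PAP values of Mpc1 lay below Astro, yet they spread 26.8-fold and the gene did not pass (log2 fold change -2.10 ± 1.01, SE; adjusted p 0.227). The gene 4930506C21Rik shares 23.1% of the exonic bases of Mpc1. Me1, the cytosolic malic enzyme, had 9.69, 18.0 and 133 CPM in PAP against 148 to 183 CPM in Astro (adjusted p 0.349). For both Mpc1 and Me1 the PAP library of animal 1 was lowest and that of animal 3 highest. Of the 35 genes, 8 were lowest in PAP of animal 1, 16 in animal 2 and 11 in animal 3. Pcx, pyruvate carboxylase, had 36.7 to 51.3 CPM in Astro and 50.5, 0.515 and 94.5 CPM in PAP, so 2 of 3 animals were higher in PAP and animal 2 was near 0 (adjusted p 0.946).

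From citrate to 2-oxoglutarate, 2 of 6 genes fell, where 15.4% of all tested genes were lower. Idh2, the mitochondrial NADP-dependent isocitrate dehydrogenase, stood at 367, 232 and 273 CPM in Astro and at 114, 132 and 111 CPM in PAP (log2 fold change -1.29 ± 0.32, SE; edgeR adjusted p 0.0321). Idh3b, a regulatory subunit of the NAD-dependent enzyme, stood at 312, 257 and 307 CPM in Astro and at 112, 61.3 and 120 CPM in PAP (-1.58 ± 0.37, SE; 0.0274). With the animal block both had an adjusted p of 0.206. The other subunits of that enzyme did not pass. The catalytic subunit Idh3a ranged from 23.2 to 333 CPM in PAP, all below its 356 to 411 CPM in Astro, and the regulatory subunit Idh3g ranged from 49.2 to 252 CPM in PAP against 204 to 269 CPM in Astro. Cytosolic Idh1 had 146 to 195 CPM in Astro and 21.9, 0 and 29.7 CPM in PAP, a log2 fold change of -3.25 with a wide error (SE 1.39; adjusted p 0.173).

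Citrate synthase (Cs), which joins acetyl-CoA to oxaloacetate, showed no difference beyond its spread. It stood at 472, 380 and 598 CPM in Astro and at 439, 255 and 787 CPM in PAP. The animals had the same order in both compartments, animal 3 highest and animal 2 lowest. The log2 fold change was 0.03 ± 0.45 (SE; adjusted p 0.977).

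Between 2-oxoglutarate and succinate, 1 of 5 genes fell, a share near the 15.4% of all tested genes that were lower. Suclg1, the alpha subunit common to both forms of succinyl-CoA ligase, stood at 536, 396 and 520 CPM in Astro and at 89.3, 229 and 136 CPM in PAP (log2 fold change -1.68 ± 0.41, SE; edgeR adjusted p 0.0314, and 0.206 with the block). The call of Suclg1 was made in 9 of 17 alternative analyses. Suclg2, the beta subunit of the GTP-forming enzyme, stood at 88.5, 76.2 and 78.2 CPM in Astro and at 6.63, 0 and 3.30 CPM in PAP, from 13, 0 and 10 counts. Its PAP libraries were all far below Astro. It had the lowest log2 fold change of the 35 genes, -4.61 ± 1.36 (SE), and missed the threshold at an adjusted p of 0.0582, passing it in 6 of 17 alternative analyses. Sucla2, the beta subunit of the ATP-forming enzyme, had 224 to 251 CPM in Astro and 115, 187 and 301 CPM in PAP, overlapping ranges (-0.24 ± 0.41, SE; adjusted p 0.775). Ogdh and Dlst, the E1 and E2 parts of the 2-oxoglutarate dehydrogenase complex, did not pass. Ogdh had 94.4, 137 and 0 CPM in PAP and Dlst 82.1, 23.2 and 45.3 CPM, all below their Astro values of 153 to 202 CPM and 104 to 117 CPM.

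Succinate dehydrogenase, which is also complex II of the respiratory chain, fell in all 4 of its genes in this fit, where 15.4% of all tested genes were lower; whether this group differed from the others was not tested. In edgeR 0 of the 4 passed with the animal block, as with voom, while 2 passed among genes averaging 100 counts or more (adjusted p 0.0508 for Sdha and 0.0583 for Sdhc) and 3 at equal depth (0.0669 for Sdhc). Sdha carries the flavin site, Sdhb the iron-sulfur clusters, and Sdhc and Sdhd anchor the enzyme in the membrane. The 4 genes summed to 2200, 2147 and 2289 CPM in Astro of animals 1 to 3 and to 653, 641 and 891 CPM in PAP, a ratio of 3.37, 3.35 and 2.57 within animals. The promoters of 3 of the 4 genes are shown as a description, as Sdhc was not in the promoter table. They are the 150 bases before the start in the RefSeq promoter table (build GRCm38.p6), 5′ to 3′ on the gene's own strand. Capitals mark matches on either strand to the NRF-1 core TGCGCA, the ETS core CCGGAAG and the GC box GGGCGG, motifs known from promoters of mitochondrial genes. The windows are chr13:74350241-74350390 (minus strand) for Sdha, chr4:140961121-140961270 (plus strand) for Sdhb and chr9:50603850-50603999 (minus strand) for Sdhd, and the GENCODE starts of Sdha and Sdhb lie inside them.
Sdha: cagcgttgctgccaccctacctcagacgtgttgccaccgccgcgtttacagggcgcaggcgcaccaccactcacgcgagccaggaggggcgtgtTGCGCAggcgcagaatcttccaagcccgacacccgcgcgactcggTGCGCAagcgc
Sdhb: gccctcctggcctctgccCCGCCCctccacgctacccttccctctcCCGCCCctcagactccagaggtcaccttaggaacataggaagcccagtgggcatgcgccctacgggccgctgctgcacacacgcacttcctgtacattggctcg
Sdhd: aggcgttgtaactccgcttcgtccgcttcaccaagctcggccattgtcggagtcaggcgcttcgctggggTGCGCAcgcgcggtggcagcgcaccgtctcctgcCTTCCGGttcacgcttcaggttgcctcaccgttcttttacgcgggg
Sdha showed 2 matches to the NRF-1 core, Sdhb 2 to the GC box, and Sdhd 1 to the NRF-1 core and 1 to the ETS core. No motif was found in all 3 windows. In windows of 250 bases, 32 of the 35 genes were matched in the table (not Idh3a, Pdp1 and Sdhc), and the motifs were searched separately, so matches may overlap. The NRF-1 core was found in 6 of the 32 (18.8%, against 6.43% of all 32851 promoters), the ETS core in 4 (12.5%, against 6.91%) and the GC box in 21 (65.6%, against 32.7%). The 32 are genes, counted when any of their promoters matched, while the background is a share of single promoters. These shares are therefore not like for like, and a difference between them cannot be read as enrichment. A match is a description of letters and was not tied to any difference between the compartments.

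Sdhb stood at 531, 489 and 555 CPM in Astro of animals 1 to 3 and at 157, 146 and 226 CPM in PAP. Its means were 525 ± 33.3 and 177 ± 43.4 CPM (SD, n = 3), and the log2 fold change -1.57 ± 0.28 (SE; edgeR adjusted p 0.0208). Sdhd stood at 568, 569 and 627 CPM in Astro and at 266, 276 and 221 CPM in PAP, and its values were close together in both compartments (-1.21 ± 0.24, SE; 0.0208). Among the 35 genes these calls were made in the most alternatives, 12 of 17, and were lost with the animal block, with voom and without each Astro library. Sdha stood at 517, 482 and 607 CPM in Astro and at 142, 47.9 and 179 CPM in PAP (-2.12 ± 0.51, SE; 0.0294). Sdhc stood at 584, 606 and 501 CPM in Astro and at 87.8, 170 and 265 CPM in PAP (-1.69 ± 0.43, SE; 0.0366). In all 4 genes the highest PAP value was below the lowest Astro value, but the lowest PAP library differed: animal 1 for Sdhc, animal 2 for Sdha and Sdhb, and animal 3 for Sdhd. The call of Sdha was also lost without PAP of animal 1 and that of Sdhc without PAP of animal 2. With the block the adjusted p was 0.175 for Sdha and 0.206 for the others.

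**Figure D3:**
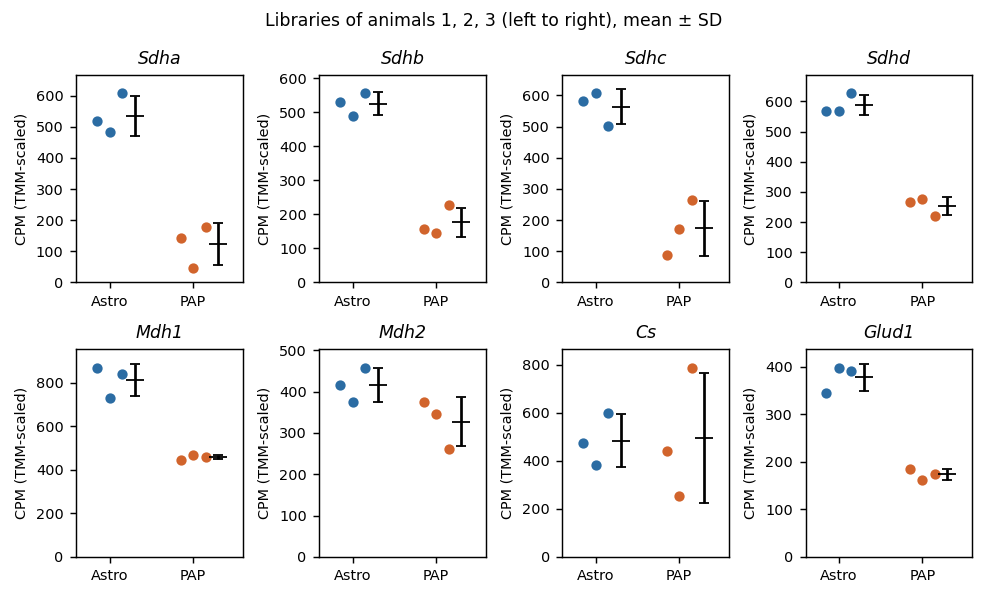
TMM-scaled CPM of the succinate dehydrogenase genes and of Mdh1, Mdh2, Cs and Glud1 in each library (points, animals 1 to 3 from left to right), with mean and SD (n = 3) beside them, on axes from 0. Sdha to Sdhd, Mdh1 and Glud1 show PAP points well below Astro points, while Cs overlaps.

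Of the enzymes from fumarate to oxaloacetate, the cytosolic malate dehydrogenase Mdh1, a member of the malate-aspartate shuttle, fell. It stood at 870, 733 and 840 CPM in Astro and at 447, 470 and 459 CPM in PAP, the narrowest PAP range of the 35 genes at 1.05-fold. The log2 fold change was -0.83 ± 0.21 (SE; edgeR adjusted p 0.0337, and 0.211 with the block), which lay -0.30 from the median of all tested genes. The mitochondrial enzyme Mdh2, which closes the cycle, stood at 417, 376 and 458 CPM in Astro and at 376, 346 and 260 CPM in PAP. Its highest PAP value and lowest Astro value were nearly equal (-0.35 ± 0.26, SE; adjusted p 0.460). Fumarase, Fh1, had 66.5 to 94.7 CPM in Astro and 49.9 to 90.8 CPM in PAP, overlapping ranges (adjusted p 0.691).

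Genes that exchange carbon with glutamate had values of both signs. Glud1, glutamate dehydrogenase, fell, and stood at 344, 398 and 390 CPM in Astro and at 184, 162 and 175 CPM in PAP (log2 fold change -1.12 ± 0.25, SE; edgeR adjusted p 0.0240, and 0.206 with the block). The aspartate aminotransferases did not pass and had positive values. Cytosolic Got1 had 56.4, 69.6 and 84.8 CPM in Astro and 248, 61.3 and 147 CPM in PAP, higher in 2 of 3 animals (1.12 ± 0.58, SE; adjusted p 0.266). Mitochondrial Got2 had 23.3, 25.9 and 38.8 CPM in Astro and 79.6, 30.9 and 68.1 CPM in PAP, higher in 3 of 3 animals (1.02 ± 0.65, SE; adjusted p 0.371).

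**Figure D4:**
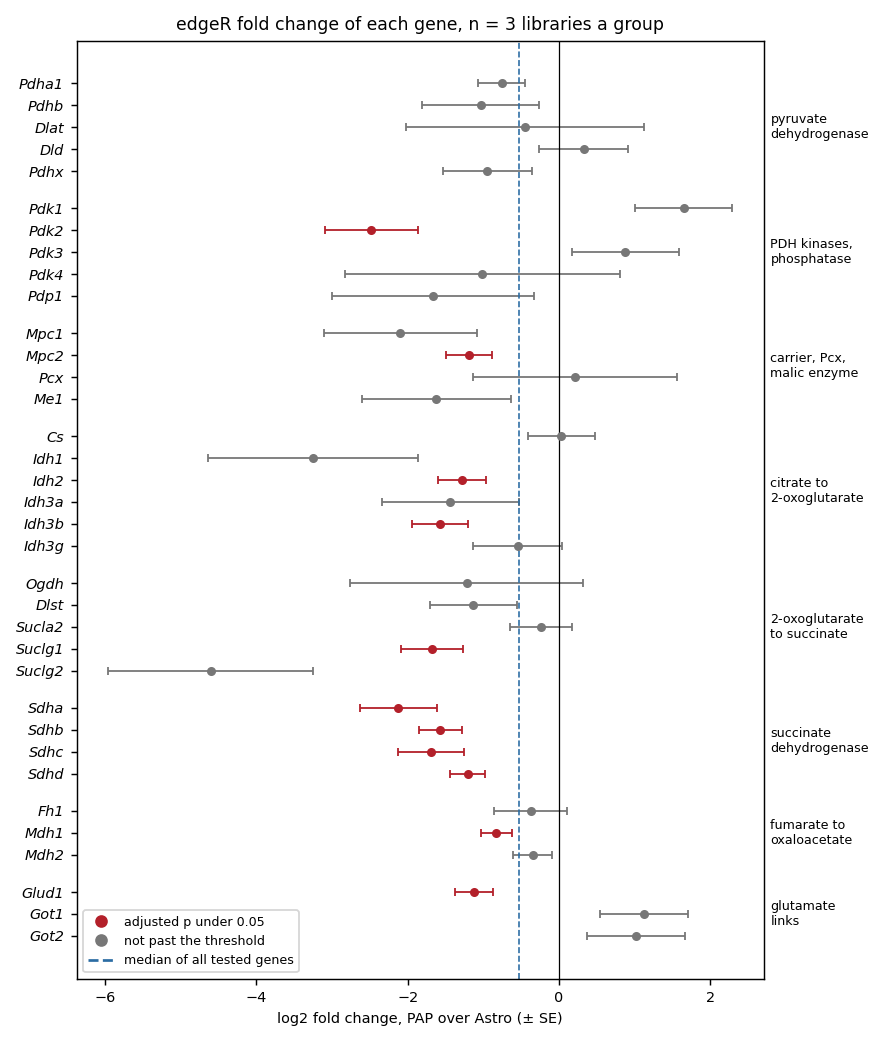
Log2 fold change of PAP over Astro for each of the 35 genes with its SE (edgeR, n = 3 libraries a compartment), red for an adjusted p under 0.05, with the median of all tested genes (-0.53) dashed. The 11 red points are all below 0, and Suclg2 at -4.61 and Pdk1 at 1.65 mark the ends.

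As a description, called and uncalled genes differed in level and spread. The 11 called genes had Astro means of 291 to 814 CPM and PAP values that spread by a median of 1.55 times, with SE of 0.21 to 0.62. The 24 uncalled genes had Astro means of 29.3 to 511 CPM, a median PAP spread of 4.11 times over the genes with no PAP library at 0, and SE of 0.26 to 1.82. Their log2 fold changes ran from -4.61 to 1.65, and an adjusted p over the threshold does not show that these genes were equal in the compartments. Across the 35 genes, the log2 fold change correlated with log2 exonic length at 0.14, with GC content at 0.17 and with the Astro level at -0.39 (Pearson's r, across genes that share the same libraries, as a description). The Astro level also enters the fold change with the opposite sign, so a negative value can arise without any relation.

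**Figure D5:**
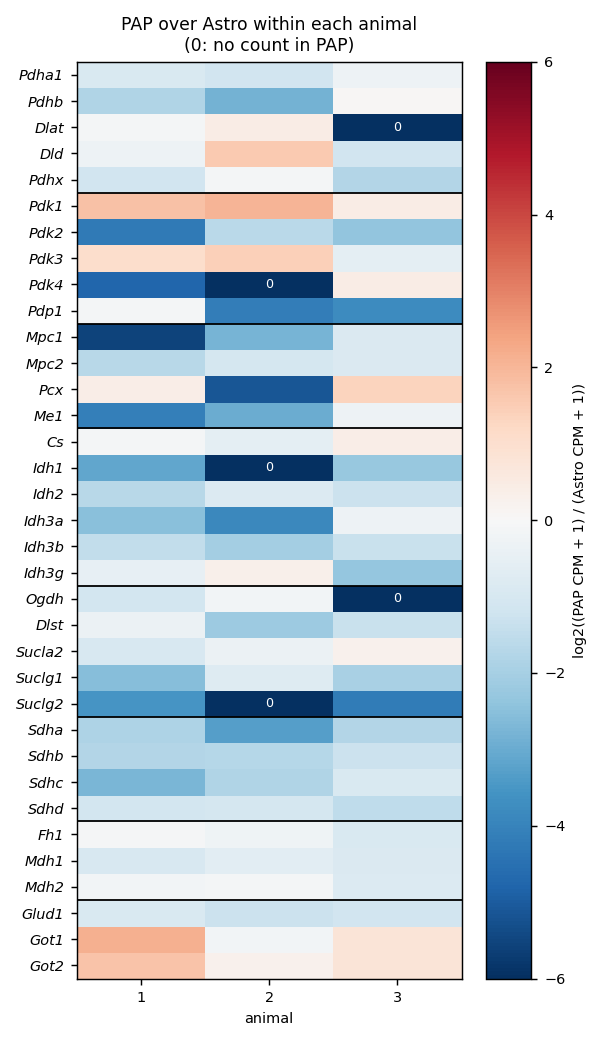
Log2 ratio of PAP to Astro within each animal for the 35 genes, after adding 1 to each CPM value, with blue for lower and red for higher in PAP, colours ending at 6 in either direction, and 0 written where PAP had no count. The succinate dehydrogenase rows are blue in all 3 columns, while rows such as Dlat, Ogdh, Pdk4 and Pcx change colour or depth between animals.

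Levels of different genes were compared per kilobase of exonic sequence. The length is that of all annotated exons of a gene merged, not of the transcripts present, so these levels depend on the annotation. The same lengths enter the kinase shares and the ratios of partner genes. In Astro Sdhd was highest at 478 ± 27.2 CPM per kb (SD, n = 3), followed by Mdh1 at 317 ± 28.2, and neither range overlapped the next gene. Mpc1 (245 ± 5.45), Sdhb (235 ± 14.9) and Pdk2 (204 ± 38.0) came next, and each of these overlapped its neighbour. Pcx (8.83 ± 1.71), Got2 (6.08 ± 1.72) and Pdk1 (5.87 ± 1.49) were lowest. In PAP Sdhd (207 ± 24.0 CPM per kb) and Mdh1 (179 ± 4.31) were again highest, although both had fallen. Mdh2 (91.9 ± 16.9), Cs (85.4 ± 46.8) and Sdhb (78.9 ± 19.4) followed with overlapping values, and Suclg2 was lowest at 0.717 ± 0.717. Pdk2 ranked 5 of 35 in Astro and 15 in PAP, Mpc1 ranked 3 and 10, and Cs ranked 15 and 4.

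A list of 32 other genes of pyruvate and TCA metabolism was tested in the same fit. Of the 30 with enough counts (all but the monocarboxylate transporters Slc16a3 and Slc16a7), 3 were lower and 3 higher in PAP, and 24 did not pass, where 15.4% of all tested genes were lower and 5.92% higher. Their median log2 fold change was -0.43, beside -0.53 over all tested genes. Gpt2, the mitochondrial alanine aminotransferase, fell from 386, 328 and 457 CPM to 90.8, 69.1 and 53.5 CPM in animals 1 to 3 (log2 fold change -2.46 ± 0.34, SE; edgeR adjusted p 0.0168). Ldhb, the lactate dehydrogenase subunit of oxidative tissues, fell from 1806, 1547 and 1583 CPM to 137, 496 and 411 CPM (-2.24 ± 0.48, SE; 0.0222). The other lactate dehydrogenase subunit, Ldha, did not pass, at 430, 309 and 357 CPM in Astro and 549, 566 and 398 CPM in PAP (0.46 ± 0.27, SE; adjusted p 0.328).

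Pdp2 and Pck2, which rose, were low in Astro. Pdp2, another pyruvate dehydrogenase phosphatase, rose from 9.78, 6.75 and 7.87 CPM to 157, 68.6 and 98.1 CPM (3.73 ± 0.62, SE; edgeR adjusted p 0.0208). Pck2, the mitochondrial enzyme that makes phosphoenolpyruvate from oxaloacetate, rose from 12.2, 15.5 and 9.39 CPM to 224, 88.7 and 151 CPM (3.64 ± 0.58, SE; 0.0208). Both had PAP values above every Astro value and were called in 13 of 17 alternatives. With the block none of the 30 genes passed in edgeR, with adjusted p from 0.133 upwards, and at an unadjusted p under 0.05 there were 4 lower and 3 higher (13.3% and 10.0%, against 17.9% and 5.42% of all tested genes). The assembly factors of succinate dehydrogenase, Sdhaf1 to Sdhaf4, did not pass. Sdhaf4 had 24.5, 13.4 and 107 CPM in PAP against 153 to 174 CPM in Astro, and Sdhaf2 had 70.4, 0 and 82.3 CPM against 125 to 160 CPM.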

How the data were processed

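TRAP RNA of 48 samples was analysed (3 animals, 2 compartments, 8 technical replicates). Per the labels' protocols, lysates were pre-cleared, RNA was amplified with SMART-Seq v4 and libraries were made with Nextera XT. The deposited values are raw counts per Ensembl gene, and per the submitters' processing notes the tools were bcl2fastq 2.18.0.12, Trim Galore 0.4.1, STAR 2.5.2b, SAMtools and HTSeq 0.5.3, with build mm10. The annotation and strand setting are not given in the sources used here, so reads of overlapping genes cannot be separated. No molecular identifiers are named, so floors cover counting error only.

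Technical replicates were summed. GENCODE M21 (GRCm38) gave symbols, positions and exonic lengths for 99.1% of identifiers. edgeR 4.0.16 in R 4.3.3 used filterByExpr (minimum count 10), TMM factors and a model of compartment. DESeq2 1.42.0, voom in limma 3.58.1, other scalings, filters, thinning, technical replicates 1 to 4 or 5 to 8, and leaving out each library were alternatives. The pairing comes from the labels, which name the same animals in both compartments. Deviations of same-animal libraries correlated at 0.03, 0.02 and -0.03. The 35 genes, the other lists and the tests were chosen with earlier results of these data known. Values in every library are given for genes called in either direction, those with an adjusted p under 0.1 and those highest per length, and other genes are given by range or where a result turns on them. Some genes of the other lists that this rule names are not reported here.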

Additional observations from a re-analysis of the deposited data

How the results depend on the processing

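With the animal as a replicate block (a paired fit), 0 of the 35 genes were called lower, and 0 and 0 of the wider list lower and higher. Leaving out 1 library at a time gave 0 to 15 of the 35 genes lower and 0 to 1 higher, and 0 to 7 lower and 0 to 3 higher in the wider list. Each of the 3 fits without an Astro library gave 0 calls among these genes in edgeR, and at most 0.0389% of all genes tested were called lower there, against 17.8% to 20.2% without a PAP library. The DESeq2 Wald test called 1 of the 35 genes higher (11.5% of all genes) and 7 of the wider list lower (23.6%). Voom called 1 of the 35 genes lower (19.9% of all genes), the filter at 100 counts on average kept 3 calls (8.19%), and equal depth 4 (9.16%). DESeq2 size factors and upper-quartile factors gave 11 (15.1% of all genes in each), library size alone 8 (14.7%), no filter 9 (6.47%), and technical replicates 1 to 4 or 5 to 8 gave 12 each (14.9% and 14.6%). The median of the 35 genes less that of all tested genes was -0.59, and turned to 0.37 with the block and 0.31 with voom.

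Of the 35 genes, no called gene changed direction in the alternatives run, and 4 uncalled ones did. Pcx, at 0.21, became -0.63 with the block, -1.46 with voom and -0.0213 in technical replicates 5 to 8, and ranged from -0.78 (without PAP of animal 3) to 0.73 with 1 library left out. Cs, at 0.03, became -0.0939 with the block, -0.0115 with voom, -0.13 with no filter, -0.00695 and -0.0183 in technical replicates 1 to 4 and 5 to 8, and ranged from -0.54 (without PAP of animal 3) to 0.28, with -0.0842 without Astro of animal 2. Dld, at 0.32, became -0.0740 with voom and ranged from -0.63 (without PAP of animal 2) to 0.61 with 1 library left out. Dlat, at -0.45, ranged from -1.14 to 0.0727 (without PAP of animal 3). The cause was not tested. The share of counts moved by less than the spread between animals in technical replicates 1 to 4 and 5 to 8. Depth limits the PAP values, where 3 counts stand for 0.991 to 1.55 CPM.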

Other observations

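Partner genes of a step had narrow ratios in Astro and wider ones in PAP. These ratios, of levels per kilobase, were chosen after their values were seen and are given as values. Ratios of gene pairs outside these lists were not taken. PAP libraries were shallower, and 72.2% of all tested genes spread more than 5-fold or had a PAP library at 0. Mpc1 over Mpc2, the 2 subunits of the pyruvate carrier, was 5.43, 5.65 and 6.08 in Astro of animals 1 to 3 and 0.342, 1.68 and 6.16 in PAP. Pdha1 over Pdhb, the 2 chains of the E1 enzyme, was 2.55 to 2.69 in Astro and 5.05, 8.64 and 1.98 in PAP. Suclg1 over Sucla2, which pair in the ATP-forming succinyl-CoA ligase, was 2.07, 1.44 and 1.79 in Astro and 0.669, 1.06 and 0.390 in PAP, lower in 3 of 3 animals with ranges that did not overlap. Sdha over Sdhb was 0.529 to 0.594 in Astro and 0.490, 0.178 and 0.429 in PAP. Other pairs had overlapping ranges. Sdhd over Sdhb was 1.95 to 2.12 in Astro and 1.77 to 3.43 in PAP. Sdhc over Sdhb was 0.621 to 0.854 in Astro and 0.385 to 0.806 in PAP. Got1 over Got2 was 4.16 to 5.11 in Astro and 3.77 to 5.93 in PAP. Idh2 over Idh1 was 1.62 to 2.02 in Astro and 5.55 and 4.00 in PAP of animals 1 and 3, with Idh1 at 0 in animal 2. Cytosolic Mdh1 over mitochondrial Mdh2 was 2.89, 2.70 and 2.55 in Astro and 1.65, 1.88 and 2.45 in PAP. Ldha over Ldhb was 0.113, 0.0948 and 0.107 in Astro and 1.90, 0.542 and 0.459 in PAP. Pdp2 over Pdp1 was 0.179, 0.151 and 0.0995 in Astro and 3.13, 52.7 and 21.4 in PAP, where Pdp1 rested on 78, 2 and 11 counts.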
